A study of Homo sapiens with 30 samples.

Results

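Arginine-charged cysteine tRNA was examined here in HEK293 cells through 6 of the 30 libraries of a messenger RNA sequencing series on mischarged transfer RNAs. The members were taken by label: 3 libraries from cells carrying the EGFP(R96C) reporter together with Arg-tRNA_Cys(GCA), and 3 from cells carrying EGFP(R96C) alone. HEK293 is an established human embryonic kidney line, and all cells were labelled wild type. Both groups received the reporter, an EGFP whose arginine at position 96 is replaced by cysteine, fused to mCherry. In the treated group the same plasmid also carried the mischarged tRNA (mc-tRNA). Cells were transfected with Lipofectamine 3000, and mCherry-positive cells were sorted at 48 h. Polyadenylated RNA was made into strand-specific libraries from 1 µg of total RNA, as 3 independent replicates per group. The reporter transcript and the mc-tRNA itself are not analysed here, so neither the dose of the tRNA nor the repair of EGFP enters the values.

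A tRNA with the anticodon GCA reads the cysteine codons UGC and UGU. When such a tRNA carries arginine, ribosomes place a large, positively charged residue where a small thiol residue belongs, in the cell's own proteins as well as in the reporter. Misfolded cytosolic protein frees the transcription factor HSF1, which drives heat shock genes; misfolded protein in the endoplasmic reticulum (ER) engages the unfolded protein response; and the kinases of the integrated stress response lead to translation of the factor ATF4, which drives amino acid and tRNA charging genes.

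The 3 reporter libraries held 39961504, 43122268 and 55206030 gene counts, and the 3 mc-tRNA libraries 40809803, 49637113 and 44659659. All levels below are counts per 1000000 (CPM) on library totals rescaled by the trimmed mean of M values (TMM). Log2 fold changes are mc-tRNA against reporter alone, from edgeR's quasi-likelihood fit over 22321 genes. The ± beside a log2 value is its absolute size over the square root of its F statistic, an approximate standard error. A gene was said to rise or fall when its Benjamini-Hochberg adjusted p was under 0.05. The TMM factors differed between the groups, at 1.04 to 1.08 with the reporter alone and 0.714 to 0.730 with the mc-tRNA. With library totals alone in their place, the median log2 fold change of all tested genes moved by -0.545, and a fold change below about that size in either direction can change its call or sign. Where this scaling moved the balance of rises and falls in a list by over 10 percentage points, its counts are given beside the others. The replicates are called independent without a word on separate cultures, so p-values measure only the spread between these libraries, which may be technical.

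Of the 22321 genes tested, 60.7% were called. The 6750 that rose were 30.2% and the 6800 that fell were 30.5%, and under library totals 14.1% rose and 55.6% fell. These shares of all tested genes stand beside every list count below. The groups did not overlap for 61.8% of genes. Size and direction were uneven among abundant genes. Of the 10602 genes with a mean of at least 10 CPM in either group, 289 rose at least 4-fold and 8 fell at least 4-fold. Among them 99 rose at least 8-fold and 0 fell that far, and 24 rose at least 32-fold. Some of those that rose, such as CRYAB and DSC1, were close to silent with the reporter alone. Counts also became concentrated in fewer genes. With the reporter alone, 1089, 1037 and 1142 genes held 50% of the counts, and with the mc-tRNA 602, 614 and 574 did. The 10 most abundant genes took 6.19% ± 0.423 of the counts with the reporter alone and 10.2% ± 0.170 with the mc-tRNA (SD, n = 3 each). The groups did not overlap in either measure, and the exact two-sided permutation p was 0.1, the smallest that 3 against 3 can give.

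**Figure D1:**
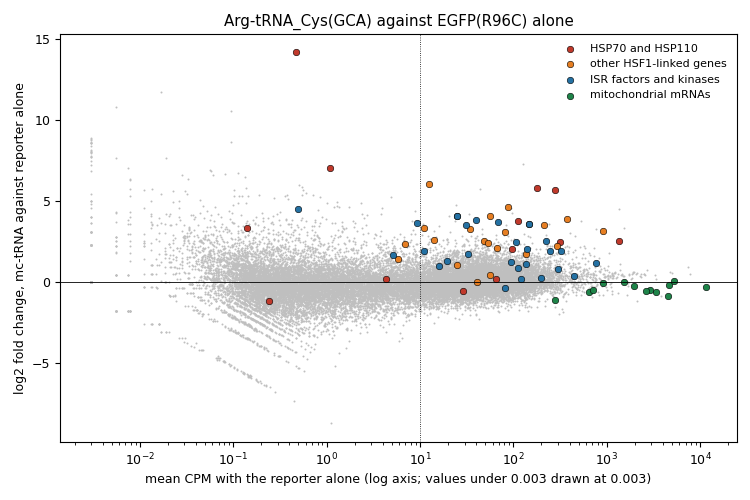
Mean level with the reporter alone (CPM, log axis) against log2 fold change with the mc-tRNA for each of the 22321 genes tested (grey), with the members of 4 gene lists in colour. Among genes of at least 10 CPM in either group, 99 rose at least 8-fold and 0 fell that far. Some of the 99 lie below 10 CPM on the horizontal axis.

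Chaperone genes took a much larger share of the messenger RNA with the mc-tRNA. The 6 chaperone lists (HSP70, HSP40, small HSP, HSP90, TRiC and the mitochondrial chaperones) went from 1.91% ± 0.0414 of the counts with the reporter alone to 11.7% ± 0.146 with the mc-tRNA (SD, n = 3 each), a ratio of 6.14. The single libraries read 1.95%, 1.89% and 1.88% against 11.8%, 11.8% and 11.5%, without overlap. The exact two-sided permutation p was 0.1, the smallest possible.

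Among the HSP70 and HSP110 proteins, which bind exposed hydrophobic stretches and refold them with ATP, 10 of 13 tested members rose and 1 fell (9 and 4 under library totals), with a median log2 fold change of 2.50, against a median of -0.04 over all tested genes. Promoter sequence around the heat shock element is shown first, because this is the DNA that HSF1 reads. The element was searched as GAA, TTC and GAA, or TTC, GAA and TTC, with 2 free bases between blocks, on both strands, from 250 bases before to 50 bases after each RefSeq start (GRCh38.p14), where it stood in 0.487% of 27305 promoters. With 1 of the 9 fixed bases free, a form added after the data had been seen, it stood in 6.36%. Of the 85 matched promoters of the 6 chaperone lists, 5.88% held the strict form and 18.8% the looser one. The strict form stood in 0 of the 13 matched promoters of the TRiC list and 0 of 13 of the mitochondrial list. Of 48 matched genes with the strict form 52.1% rose and 18.8% fell, and of 567 with the looser one 45.1% and 24.9%. All 13365 matched genes had 36.7% that rose and 32.2% that fell. Capitals mark the match, and a match is a description of letters, not a measured site. The HSPA6 and DNAJB6 stretches (chr1:161524451-161524493 and chr7:157336858-157336900) hold the strict form. The HSPA1B and HSPB1 stretches (chr6:31827618-31827660 and chr7:76302476-76302518) hold the looser one. All 4 are on the plus strand.
HSPA6: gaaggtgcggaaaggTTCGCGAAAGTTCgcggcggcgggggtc
DNAJB6: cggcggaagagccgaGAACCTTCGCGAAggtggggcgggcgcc
HSPA1B: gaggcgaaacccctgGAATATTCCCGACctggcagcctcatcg
HSPB1: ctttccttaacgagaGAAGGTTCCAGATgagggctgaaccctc

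HSPA1B, a main inducible HSP70, measured 292, 257 and 282 CPM with the reporter alone and 13926, 13730.5 and 14053 CPM with the mc-tRNA, a log2 fold change of 5.65 ± 0.21. The groups stood far apart in all 6 libraries. HSPA1A is nearly identical to HSPA1B and HSPA7 to HSPA6, so how reads were split within each pair is uncertain. HSPH1, the HSP110 that recharges HSP70 with ATP, went from 189.7, 173 and 181 CPM to 10319, 11055 and 9198 CPM (log2 5.81 ± 0.10), again with no overlap. HSPA8, the constitutive HSP70, was already abundant at 1376, 1399.9 and 1271 CPM and reached 7557, 7554 and 7703 CPM (log2 2.50 ± 0.08). HSPA4L, an HSP110 relative, rose by 3.75 on the log2 scale and HSPA1L by 3.32. The member that fell was HSPA12A, an atypical HSP70 singled out after its value was seen, at -0.58.

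J-domain proteins, which hand substrates to HSP70, followed: 16 of 21 tested members rose and 3 fell (14 and 6 under library totals), with a median log2 fold change of 1.24. DNAJB4, a close relative of DNAJB1, measured 21.3, 24.2 and 27.0 CPM with the reporter alone and 692, 705 and 540.4 CPM with the mc-tRNA (log2 4.74 ± 0.12). DNAJA1 measured 239, 247 and 246 CPM and 2830.1, 2929 and 2859 CPM (log2 3.56 ± 0.08). Every mc-tRNA library of both genes lay above every reporter library. DNAJB6, which holds back aggregates of polyglutamine proteins, rose by 2.92, DNAJC3, an ER-resident J-domain protein, by 2.49 and DNAJB5 by 1.73.

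Among small heat shock proteins, which hold unfolded proteins without ATP, and BAG proteins, which release nucleotide from HSP70, 10 of 14 tested members rose and 2 fell (8 and 5 under library totals), with a median log2 fold change of 1.04. CRYAB, the lens and muscle protein alpha-B crystallin, was close to silent at 0.119, 0.112 and 0.0504 CPM and went from 13 counts over the 3 reporter libraries to 13075 over the 3 mc-tRNA libraries (log2 10.51 ± 0.35). BAG3, which links HSP70 to small heat shock proteins in selective autophagy, went from 43.6, 43.5 and 45.9 CPM to 2393, 2304 and 2279 CPM (log2 5.71 ± 0.10). HSPB1 went from 91.8, 100.0 and 94.9 CPM to 2231, 2087 and 2383 CPM (log2 4.55 ± 0.09). In these 3 genes the groups were separated by more than 10-fold in every pairing of libraries. HSPB8, the partner of BAG3, rose by 3.61, and ST13, an HSP70 co-chaperone, by 2.22.

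In the HSP90 list, the chaperones that finish folding of kinases and receptors and their co-chaperones, 15 of 22 tested members rose and 6 fell (11 and 8 under library totals), with a median log2 fold change of 0.87. HSP90AA1, the inducible cytosolic form, measured 1388, 1214 and 1479.7 CPM with the reporter alone and 31639, 32603 and 28236 CPM with the mc-tRNA (log2 4.50 ± 0.09). HSP90AB1, the less inducible form, measured 1673, 1598 and 1375 CPM and 15673, 15680.4 and 16022 CPM (log2 3.35 ± 0.07). Neither pair of groups overlapped. The co-chaperones CHORDC1 (4.26), STIP1, which bridges HSP70 and HSP90 (3.00), AHSA1, which speeds the HSP90 ATPase (2.76), and NUDC (2.43) rose too, all values being log2 fold changes.

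For TRiC, the ring that folds actin and tubulin, and prefoldin, which feeds it, 11 of 15 tested members rose and 2 fell, with a median log2 fold change of 0.86. TCP1, a TRiC subunit, measured 496, 469 and 400.1 CPM and 3147, 3359 and 3291 CPM (log2 2.84 ± 0.07), without overlap. The other named subunits rose less, CCT4 by 1.69, CCT3 by 1.61, CCT6A by 1.31, CCT8 by 1.18 and CCT2 by 1.09. Among genes of its known substrates, named without a fixed list of them, TUBB fell from 2272, 2131 and 1903 CPM to 901, 863 and 992 CPM (log2 -1.19 ± 0.06), TUBA1B fell by 0.79 and ACTB by 0.67. Of 14 tested TUBA and TUBB genes, 64.3% fell and 14.3% rose.

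**Figure D2:**
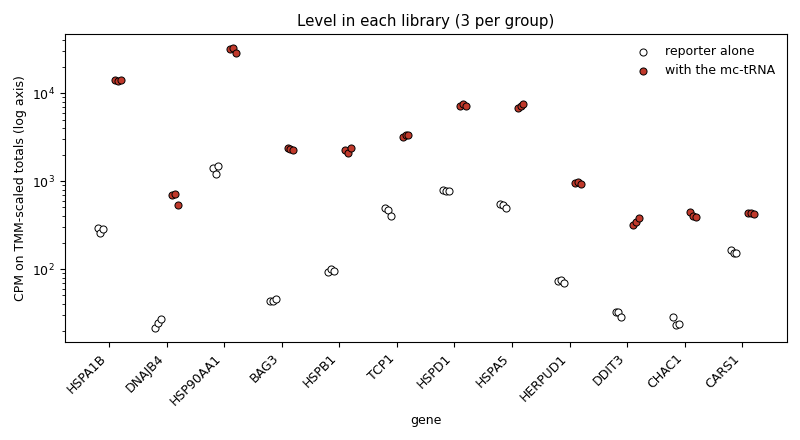
Level of 12 named genes in each of the 6 libraries (CPM, log axis), with the reporter alone as open circles and with the mc-tRNA as filled circles. In each gene the 3 filled circles lie above the 3 open circles.

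Mitochondrial chaperones were divided. Of 16 tested members 7 rose and 5 fell (6 and 10 under library totals), beside 30.2% and 30.5% of all tested genes. Their median log2 fold change was 0.05. HSPD1, the mitochondrial HSP60 ring, measured 785, 767 and 764 CPM with the reporter alone and 7181, 7534 and 7211 CPM with the mc-tRNA (log2 3.24 ± 0.06), and its lid HSPE1 rose by 2.35. HSPA9, the mitochondrial HSP70, rose by 1.97 and its exchange factor GRPEL2 by 1.95. The proteases split, with YME1L1 up by 1.54 and SPG7 at -0.92.

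The mRNA of HSF1 itself measured 70.0, 72.9 and 78.0 CPM with the reporter alone and 74.3, 66.2 and 77.4 CPM with the mc-tRNA, a log2 difference of -0.02 ± 0.07 (adjusted p 0.81), and the groups overlapped. Under library totals the difference was -0.57. HSF2 rose by 0.59 (not called under library totals, at 0.04) and HSBP1L1 by 1.83, and HSF4 fell by 1.74. Among other genes known to rise in heat shock, 21 of 22 tested members rose and 0 fell, with a median log2 fold change of 2.83. ZFAND2A, a proteasome-associated arsenite-inducible protein, went from 13.5, 13.5 and 10.7 CPM to 843, 825 and 779 CPM (log2 6.03 ± 0.12). SERPINH1, the collagen chaperone HSP47, went from 86.6, 90.5 and 87.7 CPM to 2280.3, 2134 and 2189 CPM (log2 4.64 ± 0.10). No reporter library reached the lowest mc-tRNA library in either gene.

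Chaperones of the ER were higher as well: 15 of 18 tested members rose and 2 fell, with a median log2 fold change of 1.46. Their share went from 0.404% ± 0.00493 of the counts with the reporter alone to 1.26% ± 0.0362 with the mc-tRNA (SD, n = 3 each), with no overlap and an exact two-sided permutation p of 0.1, the smallest possible. The ER stress element, CCAAT and CCACG with 9 free bases between, searched on both strands, is the DNA that ATF6 and XBP1 read. It stood in 33.3% of the 15 matched promoters of this list and in 0.0806% of all promoters in the RefSeq table (GRCh38.p14). The stretches of HSPA5 (chr9:125241376-125241424, minus strand), CALR (chr19:12938369-12938417) and CRELD2 (chr22:49918539-49918587, both plus strand) are shown because these 3 genes rose by different amounts, with the match in capitals. CALR and CRELD2 were chosen after their values were seen.
HSPA5: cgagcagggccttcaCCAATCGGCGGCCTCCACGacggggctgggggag
CALR: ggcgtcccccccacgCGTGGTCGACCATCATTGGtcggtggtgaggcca
CRELD2: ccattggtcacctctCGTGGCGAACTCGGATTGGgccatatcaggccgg

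HSPA5, the ER HSP70 known as BiP, measured 546, 538 and 488 CPM with the reporter alone and 6767, 7108 and 7483 CPM with the mc-tRNA (log2 3.76 ± 0.08). Its J-domain partner DNAJB9 went from 16.3, 14.9 and 17.1 CPM to 174, 190.0 and 170.4 CPM (log2 3.47 ± 0.11). Neither overlapped. DNAJB11 rose by 2.70, HSP90B1, the ER form of HSP90, by 2.07, the lectin chaperone CANX by 1.80 and HYOU1 by 1.61. CALR rose by 1.52 and CRELD2 by 0.63, the latter at 0.09 and not called under library totals.

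Protein disulfide isomerases, which form and reshuffle the cysteine pairs of secreted proteins, moved less: 15 of 20 tested members rose and 1 fell, with a median log2 fold change of 0.46. Under library totals 8 rose and 8 fell. P4HB rose by 1.77, PDIA4 by 1.62, ERP44 by 1.42, PDIA3 and PDIA6 by 1.30 each and ERP29 by 1.23, all of them also above 0 under library totals. For ER-associated degradation, which returns misfolded proteins to the cytosol, 20 of 23 tested members rose and 2 fell (12 and 7 under library totals), with a median log2 fold change of 0.76. HERPUD1, which recruits the degradation complex, measured 73.4, 74.3 and 68.5 CPM and 949.6, 966 and 935 CPM (log2 3.72 ± 0.09), without overlap. SELENOK (2.90), SELENOS (2.49), SEL1L (2.39) and DERL3 (2.01) rose too.

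Among the sensors and factors of the unfolded protein response, 10 of 15 tested members rose and 3 fell (9 and 6 under library totals), with a median log2 fold change of 1.27. XBP1 measured 231, 229.6 and 208 CPM and 1650.1, 1667 and 1674 CPM (log2 2.90 ± 0.07); spliced and unspliced forms are not told apart by gene counts. The sensors ERN1 (IRE1) and EIF2AK3 (PERK) rose by 1.58 and 1.74.

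In the integrated stress response list, 24 of 26 tested members rose and 1 fell (22 and 4 under library totals), with a median log2 fold change of 1.81. DDIT3, the death-linked factor CHOP, measured 32.2, 32.4 and 28.7 CPM with the reporter alone and 320.0, 343 and 378 CPM with the mc-tRNA (log2 3.48 ± 0.15). CHAC1, which degrades glutathione, went from 28.3, 23.4 and 23.5 CPM to 443, 402 and 386 CPM (log2 4.04 ± 0.24). All mc-tRNA libraries exceeded all reporter libraries for both. ATF4, regulated mainly in translation, rose by 1.19. ATF3 rose by 3.59, TRIB3 by 3.83, PPP1R15A, which dephosphorylates eIF2, by 3.70, NUPR1 by 3.61 and the hormone gene FGF21 by 4.52. The core of the amino acid response element, TGATGCAA or TTGCATCA, stood in 0.923% of all promoters and in 3 of the 22 matched promoters of this list. The FGF21 stretch (chr19:48755455-48755492) and that of HERPUD1 from the degradation list (chr16:56931951-56931988), both plus strand, are shown for the 8-base match.
FGF21: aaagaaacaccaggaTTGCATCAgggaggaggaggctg
HERPUD1: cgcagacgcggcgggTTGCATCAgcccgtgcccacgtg

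Amino acid supply genes followed in part. For amino acid synthesis, 17 of 25 tested members rose and 6 fell, with a median log2 fold change of 0.49, and under library totals 10 rose and 10 fell. CTH, which makes cysteine from cystathionine, measured 94.5, 92.3 and 79.2 CPM and 646, 663 and 591 CPM (log2 2.84 ± 0.10), without overlap. ASNS rose by 1.84, PSAT1 by 1.88, MTHFD2 by 1.76, GOT1 by 2.58 and ALDH1L2 by 2.09. For amino acid transporters, 16 of 24 tested members rose and 4 fell (10 and 9 under library totals), with a median log2 fold change of 0.54. SLC7A11, the cystine importer, measured 55.0, 46.9 and 48.6 CPM and 305, 363 and 232 CPM (log2 2.58 ± 0.19). Its partner SLC3A2 rose by 2.24, SLC1A4 by 2.33, SLC1A3 by 2.25 and the arginine transporter SLC7A3 by 1.56.

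The aminoacyl-tRNA synthetases, which charge tRNAs, parted by compartment. In the cytosol 19 of 24 tested members rose and 4 fell (13 and 9 under library totals), with a median log2 fold change of 0.82. CARS1, which charges cysteine, rose by 1.45 ± 0.07 on the log2 scale, to 431, 429.9 and 421 CPM with the mc-tRNA. RARS1, which charges arginine, measured a mean of 127 ± 9.86 CPM (SD, n = 3) and 247, 253 and 252 CPM (log2 0.98 ± 0.06). Both were separated without overlap. TARS1 and GARS1 rose by 2.17 and 2.16, WARS1 by 1.80 and YARS1 by 1.46. In mitochondria 3 of 17 tested members rose and 12 fell (0 and 16 under library totals), with a median log2 fold change of -0.57. CARS2 measured 34.6, 35.9 and 36.6 CPM and a mean of 20.2 ± 0.825 CPM (SD, n = 3; log2 -0.82 ± 0.07), again without overlap. TARS2 fell by 1.20, VARS2 by 1.14 and AARS2 by 1.10. RARS2 stood at 0.30, and at -0.25 under library totals.

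**Figure D3:**
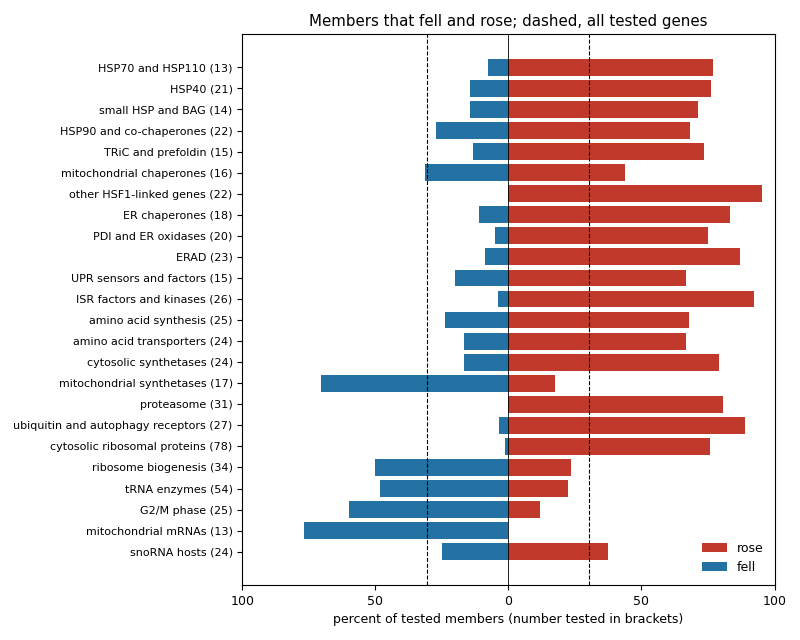
Percent of tested members that rose (right) and fell (left) in each of 24 gene lists, with dashed lines at the 30.2% and 30.5% of all tested genes. The ISR and other HSF1-linked lists reach furthest right, and the mitochondrial mRNAs and mitochondrial synthetases furthest left.

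The translation machinery moved by small amounts that depended on scaling. Of 78 cytosolic ribosomal protein genes, 59 rose and 1 fell, with a median of 0.39, but under library totals 3 rose and 32 fell. Their share of counts was 9.65% ± 1.29 with the reporter alone and 8.80% ± 0.644 with the mc-tRNA (SD, n = 3 each), overlapping (exact two-sided permutation p 0.5). For translation factors, 21 of 33 tested members rose and 8 fell (8 and 18 under library totals), with a median log2 fold change of 0.35. EIF5, an initiation GTPase activator, rose by 1.93, EIF1, the start codon selector, by 1.47, and EIF4A2 by 1.43. In the collision and quality control list, whose proteins rescue stalled ribosomes, 15 of 23 tested members rose and 2 fell (7 and 11 under library totals), with a median log2 fold change of 0.51. GTPBP2 rose by 2.07, PELO by 1.32, EDF1 by 1.31 and MAP3K20, the stress kinase ZAK, by 1.15.

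Ribosome biogenesis genes went down more often than up: 8 of 34 tested members rose and 17 fell (2 and 30 under library totals), with a median log2 fold change of -0.28. POLR1A, the largest subunit of RNA polymerase I, measured 126, 119 and 123 CPM and 45.4, 46.9 and 42.0 CPM (log2 -1.45 ± 0.09), without overlap. UTP20 fell by 1.18 and NOP2 by 0.94, and NOP58 rose by 1.38. For tRNA processing and modification enzymes, 12 of 54 tested members rose and 26 fell (8 and 43 under library totals), with a median log2 fold change of -0.20. METTL1 and WDR4, which together methylate tRNA guanosine, fell by 1.61 and 1.28. XPOT, the tRNA exporter, rose by 1.22. For RNA polymerase III and its factors, 9 of 25 tested members rose and 10 fell (2 and 19 under library totals), with a median log2 fold change of 0.07. Beside the 30.2% and 30.5% of all tested genes, these counts are not read as a shift of the list. BRF2 was up by 1.87 and GTF3C3 by 1.90.

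Protein disposal genes were mostly higher on the TMM scale. For the proteasome, 25 of 31 tested members rose and 0 fell, with a median log2 fold change of 0.45; under library totals 13 rose and 13 fell. PSMC2, an ATPase of the cap, rose by 1.58, PSMD12 by 1.36 and PSMD6 by 1.23. In the ubiquitin and autophagy list, 24 of 27 tested members rose and 1 fell (14 and 5 under library totals), with a median log2 fold change of 0.88. UBB measured 1020.1, 967 and 758 CPM with the reporter alone and 8106, 7702 and 8842 CPM with the mc-tRNA (log2 3.17 ± 0.09), without overlap. The receptor TAX1BP1 rose by 2.36, MAP1LC3B, whose product coats autophagosomes, by 2.34, and LAMP1 by 1.91.

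**Figure D4:**
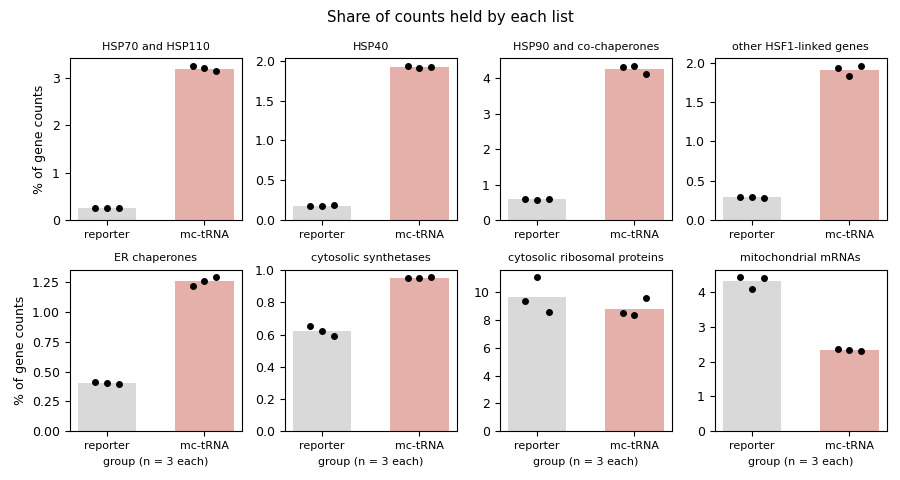
Percent of gene counts held by 8 gene lists in each of the 6 libraries (linear axes from 0), reporter alone at left and mc-tRNA at right of each panel, with the group means as bars. The HSP70 and HSP90 lists have means of 3.20% and 4.27% with the mc-tRNA, and the mitochondrial mRNAs 4.31% and 2.33% without and with it.

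Signalling genes of the immediate stress response were mostly higher. For AP-1 factors, 9 of 12 tested members rose and 1 fell (7 and 3 under library totals), with a median log2 fold change of 1.20. JUN measured 254, 278 and 347 CPM and 1352, 1408 and 1289 CPM (log2 2.20 ± 0.10), and FOS rose by 2.33, MAFF by 2.31 and MAFG by 1.97. For the wider immediate early list, 18 of 26 tested members rose and 1 fell (13 and 7 under library totals), with a median log2 fold change of 0.85. IER5, which activates HSF1 through a phosphatase, measured 46.1, 55.6 and 65.7 CPM and 941, 933 and 916 CPM (log2 4.06 ± 0.08). For MAPK phosphatases and GADD45 proteins, 13 of 17 tested members rose and 1 fell (11 and 4 under library totals), with a median log2 fold change of 1.14. DUSP1, which switches off p38 and JNK, measured 24.8, 23.5 and 22.5 CPM and 334, 319 and 318 CPM (log2 3.78 ± 0.10). The groups of JUN, IER5 and DUSP1 did not overlap. DUSP8 rose by 2.79 and GADD45B by 2.59.

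For NF-kB genes, 13 of 20 tested members rose and 4 fell (10 and 7 under library totals), with a median log2 fold change of 0.73. TNFAIP3, the inhibitor A20, measured 7.38, 8.11 and 8.16 CPM and 47.0, 46.1 and 39.3 CPM (log2 2.48 ± 0.10), without overlap. CXCL2 rose by 3.41, NFKBIZ by 2.19 and RELB by 2.15. Interferon-stimulated genes did not share a direction. Of 26 tested members 8 rose and 6 fell (2 and 13 under library totals), with a median log2 fold change of 0.13. Of all tested genes 30.2% rose and 30.5% fell, so these counts are not read as a shift of the list. IFIT1 fell by 1.04 and IFI6 by 1.18, and BST2 rose by 1.87. For p53 targets, 15 of 22 tested members rose and 5 fell, with a median log2 fold change of 0.41; under library totals 4 rose and 10 fell. SESN2, also an ATF4 target, rose by 2.49. CDKN1A, the cell cycle inhibitor p21, measured 117, 119.8 and 97.3 CPM with the reporter alone; with the mc-tRNA it rose by 0.28 ± 0.08 with groups that overlapped, and stood at -0.27 under library totals. In the BCL2 family 11 of 19 tested members rose and 3 fell (5 and 8 under library totals), with a median log2 fold change of 0.51, with PMAIP1 (NOXA) up by 1.37 and BMF down, at -1.46.

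Redox and metal genes were split. For NRF2 targets, 11 of 20 tested members rose and 8 fell (9 and 11 under library totals), with a median log2 fold change of 0.30. HMOX1, which degrades heme, measured 38.0, 37.1 and 28.7 CPM and 347, 317 and 311 CPM (log2 3.23 ± 0.17), without overlap. ME1 rose by 2.30 and FTL by 1.70. Of 6 tested metallothionein and zinc genes, 1 rose and 4 fell. MT2A fell by 1.54 and MT1X by 1.92, and their regulator MTF1 rose by 1.18. For cholesterol synthesis, 6 of 24 tested members rose and 12 fell (1 and 22 under library totals), with a median log2 fold change of -0.18. SQLE fell by 0.87. For glycolysis and hypoxia genes, 7 of 26 tested members rose and 12 fell (4 and 19 under library totals), with a median log2 fold change of -0.09. SLC2A3 rose by 1.93 and VEGFA by 1.16, and PFKFB4 fell by 1.47. GAPDH stood at 0.48, and at -0.07 under library totals.

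The share of messenger RNAs encoded in mitochondria went from 4.31% ± 0.198 of the counts with the reporter alone to 2.33% ± 0.0216 with the mc-tRNA (SD, n = 3 each), without overlap (exact two-sided permutation p 0.1, the smallest possible). Of 13, 10 fell and 0 rose, with a median of -0.49, and under library totals 13 fell. MT-CO3, a subunit of cytochrome oxidase, measured 4850.3, 4543 and 4259 CPM and 2507, 2464 and 2503 CPM (log2 -0.87 ± 0.07), without overlap. MT-ATP6 fell by 0.60, MT-ND5 by 0.54 and MT-CYB by 0.49. MT-RNR2, a mitochondrially encoded ribosomal RNA outside this list, went the other way. Its mean was 7449.5 CPM with the reporter alone and 13758 CPM with the mc-tRNA. MT-ND6 fell by 1.10, with the third reporter library apart from the others at 181, 167 and 483 CPM; without that library the fall was 0.43 (edgeR adjusted p 0.0086). The 61 nuclear respiratory chain genes had 26 that rose and 20 that fell, and 1 and 49 under library totals. The balance also depended on single libraries, with 16 and 24 without mc-tRNA replicate 3, 28 and 13 without EGFP(R96C) replicate 2, and 18 and 26 without EGFP(R96C) replicate 3.

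Cell cycle genes differed by phase. For S phase, 13 of 24 tested members rose and 4 fell, with a median log2 fold change of 0.19, and 3 and 16 under library totals. CDC6, a replication licensing factor, rose by 1.67, SLBP, which binds histone mRNA, by 1.79, and FEN1 by 1.10. For G2/M, 3 of 25 tested members rose and 15 fell (1 and 21 under library totals), with a median log2 fold change of -0.26. KIF20A, a cytokinesis motor, measured 58.2, 53.1 and 53.5 CPM with the mc-tRNA after a log2 change of -1.25 ± 0.08, without overlap. CCNA2 fell by 0.80 and AURKB by 0.69. MYC fell by 0.88, and its antagonist MXD1 rose by 3.43.

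On the TMM scale splicing regulators rose in most cases: 14 of 18 tested members rose and 3 fell (7 and 7 under library totals), with a median log2 fold change of 0.58. CLK1, a kinase of SR proteins, measured 84.2, 82.9 and 95.9 CPM and 439, 474 and 408 CPM (log2 2.33 ± 0.07), and TRA2B rose by 1.76 and TRA2A by 1.52. The nuclear RNAs NEAT1 and MALAT1 varied within groups. NEAT1 measured 103, 109 and 175 CPM and 165, 200.4 and 191 CPM, rose by 0.52 with overlapping groups (0.80 without EGFP(R96C) replicate 3), and stood at -0.03 under library totals. MALAT1 measured 265, 240.0 and 1286 CPM and 596, 1200.2 and 1352 CPM, a log2 difference of 0.81 ± 0.45 (adjusted p 0.13).

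For YAP and TEAD targets, 10 of 15 tested members rose and 3 fell (7 and 6 under library totals), with a median log2 fold change of 0.52. ANKRD1, a stretch-responsive repeat protein, measured 1.40, 1.32 and 1.39 CPM with the reporter alone and 34.9, 35.3 and 32.7 CPM with the mc-tRNA (log2 4.64 ± 0.31), and the groups stood apart. CCN1 and CCN2 rose by 2.22 and 1.80, and AMOTL2 by 1.88.

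Some genes close to silent with the reporter alone became measurable. Of 1195 tested genes under 0.1 CPM with the reporter alone, 308 rose (25.8%, beside 30.2% of all tested genes) and 36 exceeded 1 CPM with the mc-tRNA. Genes this low could pass the count filter only with libraries of other groups, among them the mc-tRNA group. They also have little room to fall. Neither their share that rose nor their balance of rises and falls is therefore read. DSC1, a desmosomal cadherin, had 1 count in the 3 reporter libraries and 1663 in the 3 mc-tRNA libraries, a ratio of 2491 with a 95% counting interval of 447 to 98456. ESRP1, an epithelial splicing regulator, measured 0.119, 0 and 0.168 CPM and 42.0, 43.9 and 36.3 CPM. The liver factor HNF4A had 0 counts with the reporter alone and was at least 42.9-fold higher against a floor of 3 counts over the group. PIWIL3 and SULT1E1 were at least 49.9-fold and 51.4-fold higher on the same floor. These intervals and floors cover counting error only. APOL6 rose by 6.73 and TNFRSF9, a costimulatory receptor, by 5.97. SNORD14E, which lies within HSPA8 on the same strand, rose by 6.48, and its reads cannot be told apart from those of the host gene.

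The largest falls among genes of at least 10 CPM were shallower. BAHCC1, a chromatin protein, measured 34.2, 39.5 and 54.9 CPM and 8.71, 8.47 and 9.11 CPM (log2 -2.29 ± 0.15). NYNRIN measured 41.6, 40.8 and 38.0 CPM and 10.1, 8.72 and 9.94 CPM (log2 -2.07 ± 0.08). SMAD6, an inhibitor of BMP signalling, measured 23.2, 24.8 and 30.8 CPM and 5.77, 5.62 and 4.91 CPM (log2 -2.28 ± 0.11). In these 3 genes the mc-tRNA libraries lay below the reporter libraries. HPS6 fell by 2.17, the potassium channel gene KCNC4 by 2.23, HOXA6 by 2.06 and the insulin receptor substrate IRS4 by 1.99. Of 35 tested HOX genes, 60% fell and 20% rose.

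Gene classes differed in direction. Of protein-coding genes 38% rose and 32.5% fell, of lincRNAs 14.4% and 30.4%, and of genes annotated as antisense 10.5% and 34.4%. The classes differed in level too, with median reporter CPM of 24.0, 0.383 and 0.481 in the same order. Of all tested genes at 0.1 to 1 CPM with the reporter alone, 14.3% rose and 21% fell. The part of level in the class shares was not tested. The counting option for strand is not given, so antisense reads may include reads of the partner. Coding sequences of protein-coding genes of at least 1 CPM with the reporter alone were also ranked by the share of TGC and TGT codons, which the tRNA reads. In the fifth with the lowest share 46.8% rose and 30.5% fell, and in the fifth with the highest 37.2% and 39.5%, a description without a test.

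Markers gave the following check of the cells. Of 14 tested genes of the HEK293 line and kidney, 5 rose and 7 fell (2 and 9 under library totals); GPC3 fell by 1.40, and KRT8 and KRT18 rose by 1.49 and 1.43. Of 10 tested markers of blood, endothelium, fibroblast, liver or muscle, 5 rose and 2 fell (4 and 4 under library totals). LUM rose by 3.56, from a mean of 0.269 CPM to 3.27 CPM, and COL1A1 by 1.39. The part of other cells in the results was not tested.

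The tryptophan counterpart, Arg-tRNA_Trp(CCA) with the EGFP(R96W) reporter against EGFP(R96W) alone, has its own 3 control libraries and was the closest comparison. There 20.7% of genes rose and 21.7% fell. The difference between the cysteine and tryptophan effects was called for 9756 genes (43.7%), 5297 of them higher with cysteine (23.7%) and 4459 lower (20%). Against the mean of this effect and those of Arg-tRNA_Gln(CUG) with EGFP(R96Q) and Arg-tRNA_His(GUG) with EGFP(R96H), each against its own reporter alone, 11740 genes were called (52.6%), 6077 higher (27.2%) and 5663 lower (25.4%). Under library totals the first split became 2500 higher and 8951 lower. The list counts and gene values of differences below are given on the TMM scale only. With library totals they would shift downward, and small differences can change their call or sign.

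The differences in 5 of the 6 chaperone lists were mostly higher with cysteine. They were 9 higher and 1 lower of 13 in the HSP70 list, 16 and 3 of 21 for HSP40, 8 and 3 of 14 for small HSP and BAG, 13 and 4 of 22 for HSP90 and 10 and 1 of 15 for TRiC. The mitochondrial chaperones had 6 higher and 4 lower of 16. Of all tested genes 23.7% were higher and 20% lower, and among other HSF1-linked genes 20 of 22 were higher and 1 lower. DNAJB1 rose by 7.27 with cysteine and 2.20 with tryptophan, a difference of 5.07 ± 0.12. BAG3 rose by 5.71 and 2.88, and CRYAB by 10.51 and 2.63. The integrated stress response list had 22 of 26 differences higher and 1 lower. CHAC1 rose by 4.04 with cysteine and stood at 0.04 with tryptophan (adjusted p of the difference 8.37e-10). For SLC7A11 the values were 2.58 and -0.00, and for ASNS 1.84 and -0.21. The reporter controls differed in level here: EGFP(R96W) alone stood above EGFP(R96C) alone by 1.63 on the log2 scale for SLC7A11, 0.71 for ASNS, 0.78 for CHAC1 and 2.98 for CRYAB, against 0.01 for BAG3 and 0.22 for DNAJB1. Between the mc-tRNA groups themselves, cysteine stood above tryptophan by 0.96 for SLC7A11, 1.34 for ASNS, 3.22 for CHAC1, 4.88 for CRYAB, 2.82 for BAG3 and 4.85 for DNAJB1. These level differences between groups were not tested. Cytosolic synthetases had 17 of 24 differences higher and 2 lower, and mitochondrial synthetases 2 of 17 higher and 12 lower.

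The ER genes were not uniformly higher with cysteine. Of 18 ER chaperones 11 differences were higher and 4 lower. HSPA5 rose by 3.76 with cysteine and 2.18 with tryptophan, a difference of 1.59 ± 0.10. CRELD2, whose promoter is shown above, rose by 0.63 and 1.37, a difference of -0.74 ± 0.10 (edgeR adjusted p 3.03e-07). PDIA4 rose by 1.62 and 1.94 (difference -0.32 ± 0.09) and DERL3 by 2.01 and 2.86 (difference -0.85 ± 0.14). For HYOU1 the effects were 1.61 and 1.78, and the difference of -0.18 ± 0.12 was not called (adjusted p 0.23). The snoRNA host genes, whose spliced RNAs are known nonsense-mediated decay substrates, had 2 of 24 differences higher and 14 lower. With cysteine 9 of these genes rose and 6 fell, with a median log2 fold change of 0.16. With tryptophan 18 rose and 0 fell, with a median of 0.56. Mitochondrial mRNAs fell with tryptophan as well, 12 of 13, with a median log2 fold change of -0.63 beside -0.49 with cysteine. Of their differences 6 were higher with cysteine and 0 lower.

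**Figure D5:**
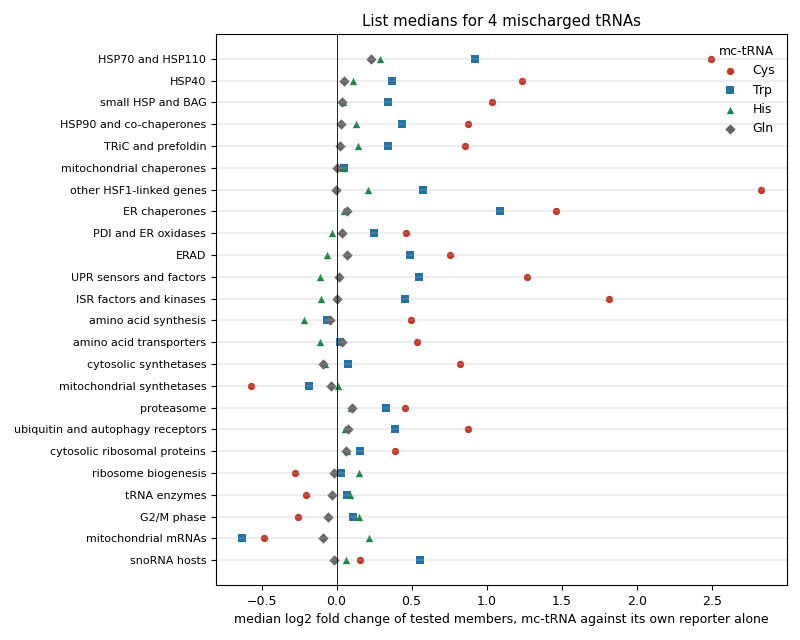
Median log2 fold change of 24 gene lists for the cysteine, tryptophan, histidine and glutamine mc-tRNAs, each against its own reporter alone. The cysteine medians of the other HSF1-linked genes (2.83) and HSP70 list (2.50) lie above the tryptophan medians (0.57 and 0.92).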

How the data were processed

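Raw read counts per gene were deposited for each library by the authors; per the submitters' processing notes STAR, SAMtools and featureCounts were used with hg38. Versions, annotation release and the strand option: not given in the sources used here. From each table, the 92 spike-in rows were dropped, and 58278 genes remained. Symbols came from the symbol table given for this work (41805) and GENCODE 29 (848), and positions from GENCODE 29 where the versioned identifier matched (55109 genes). Low genes were removed by filterByExpr, which left 22321, and edgeR 4.0.16 fitted 10 group means over all 30 libraries (TMM factors, robust quasi-likelihood, 20 residual degrees of freedom), so that all groups share the estimate of spread. Alternatives were relative log expression factors, library totals, no filter, DESeq2 1.42.0, only the 6 libraries, a replicate block and leaving out each replicate; a fit without the EGFP(R65) libraries was chosen after seeing the data. Single values per library were compared by exact permutation. The code was tested on simulated data. R 4.3.3 and Python 3.11.15 were used.

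Members and gene lists were chosen with earlier results of these data known. Named genes were the 15 largest rises and falls among called genes of at least 10 CPM without overlap, the 10 largest rises and falls in CPM, the 10 largest rises among genes under 0.1 CPM with the reporter alone, up to 6 members per list of at least 1 CPM with the largest changes, a fixed set of stress and control genes, and the 10 largest differences in each direction from the other mc-tRNAs; the text names a selection of these. Codons were counted from GENCODE 29 transcripts, since no protein table was used here. RefSeq promoters matched 13365 of the tested genes, under 80%, so motif shares are given only for lists with at least 80% matched.

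Replicate numbers 1 to 3 occur in both groups. Deviations of same-numbered libraries from their group means correlated at -0.0735 to 0.0235, so the numbers were not taken as pairs. Libraries of a group differed by more than sampling noise, with chi-square per degree of freedom of 6.52 to 41.4.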

Additional observations from a re-analysis of the deposited data

Results flagged for a closer look

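Differences between the cysteine and tryptophan effects were tested directly. They were called for 9756 genes, and for 11740 genes against the mean of the glutamine, histidine and tryptophan effects. Among genes named in the text, ANKRD1 rose by 4.64 with cysteine and fell by 1.44 with tryptophan, a difference of 6.08 ± 0.41 on the log2 scale. Its controls already differed, at 1.37 CPM with EGFP(R96C) alone and 11.2 CPM with EGFP(R96W) alone (log2 3.04), against 34.3 and 4.16 CPM with the mc-tRNAs (log2 3.04 the other way). HMOX1 rose by 3.23 and fell by 0.57, a difference of 3.81 ± 0.23, with EGFP(R96W) alone above EGFP(R96C) alone by 0.32. Of the secretory genes described under other observations, the differences were 4.58 ± 0.32 for SCG3, 3.53 ± 0.34 for CHGA, 3.10 ± 0.29 for SNAP25 and 2.86 ± 0.20 for UNC13A, with EGFP(R96W) alone against EGFP(R96C) alone at -0.08, -0.36, -0.45 and 0.09 in the same order. Over all tested genes, 1296 (5.81%) were called in opposite directions in the 2 comparisons, 708 of them higher with cysteine and lower with tryptophan and 588 the reverse. The cause was not tested.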

How the results depend on the processing

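Scaling was the choice that moved the results most. Under library totals 3143 genes rose and 12401 fell with the mc-tRNA, the difference from tryptophan split into 2500 higher and 8951 lower, and that from the mean of the other 3 mc-tRNAs into 2772 higher and 11118 lower; CDKN1A stood at -0.27, GAPDH at -0.068, NEAT1 at -0.034 and RARS2 at -0.25. Total numbers of genes called stayed within 1.5 times under every alternative run. Leaving out 1 replicate gave 12688 to 13140 genes called with the mc-tRNA, 8970 to 9731 for the difference from tryptophan and 10854 to 11492 for that from the mean. HSF1 ranged from -0.11 to 0.023 and changed sign without EGFP(R96C) replicate 3 (0.023) and without mc-tRNA replicate 2 (0.0061), uncalled in both. Without EGFP(R96C) replicate 3 MALAT1 was called at 2.05, NEAT1 stood at 0.80, MT-ND6 at -0.43, and CDKN1A was not called at 0.19, as without mc-tRNA replicate 1 at 0.17. NEAT1 was not called under 5 of the alternatives, at 0.37 to 0.51, and MT-ND6 was not called with the 6 libraries alone, at -1.11 (adjusted p 0.13). With a replicate block, which the numbers do not justify, 13766 genes were called, and DESeq2 called 13318 and the 6 libraries alone 11986. Without the mitochondrially encoded genes in the denominator, the 6 chaperone lists held 2.02% of counts with the reporter alone and 12.1% with the mc-tRNA. Depth limits genes of few counts: 70 of the 98 tested genes with 0 counts over the 3 reporter libraries had 3 or fewer over the 3 mc-tRNA libraries.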

Other observations

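Genes of neuroendocrine and neuronal secretion formed a group that the report does not describe. The list of 42 genes was written after values of some of its members had been seen, so its counts are a description of these libraries with no test, and all genes named here were chosen after their values were seen. Of 37 tested members, 27 rose and 3 fell, with a median log2 fold change of 1.14, beside 30.2% and 30.5% of all tested genes. Under library totals 22 rose and 8 fell. With the tryptophan mc-tRNA 2 rose and 16 fell, with a median of -0.40.

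SCG2, a granin of secretory granules, measured 0.524, 0.380 and 0.235 CPM with the reporter alone and 15.6, 15.5 and 14.2 CPM with the mc-tRNA (log2 5.35 ± 0.28). SCG3, another granin, measured 1.17, 1.12 and 1.39 CPM and 14.8, 16.5 and 13.8 CPM (log2 3.61 ± 0.20), and CHGA, chromogranin A, 1.71, 1.65 and 1.65 CPM and 11.1, 10.4 and 12.4 CPM (log2 2.76 ± 0.21). The mc-tRNA libraries lay above the reporter libraries in these 3 genes. SNAP25, a membrane fusion protein, rose by 2.24, the synaptic vesicle protein SYN1 by 3.50 and the release factor UNC13A by 2.08. With tryptophan SCG3 stood at -0.97, CHGA at -0.77 and SNAP25 at -0.86. REST, a repressor of neuronal genes, measured 60.3, 58.4 and 62.1 CPM and 87.5, 103 and 75.8 CPM (log2 0.56 ± 0.09), and its log2 difference was 0.01 under library totals.

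Position beside active genes was also described. Of 458 genes under 1 CPM with the reporter alone that rose at least 4-fold, 5.24% had a gene of at least 10 CPM ending within 10 kb upstream on the same strand and none overlapping it, beside 8.38% of all 7002 tested genes under 1 CPM, 7.49% of the 4620 not called and 13.3% of 518 that fell at least 4-fold. Overlap with such a gene on the same strand was at 16.8% of those that rose, 15.4% of all, 14.6% of those not called and 20.1% of those that fell. These shares were not tested.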
